A study of Mus musculus with 12 samples.

Results

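The genes described here encode the enzymes and transporters of glycolysis together with a set of genes known to respond to low oxygen. The list held 34 genes in 5 steps: glucose uptake (2 genes), upper glycolysis (11), lower glycolysis (7), pyruvate and lactate (8) and hypoxia targets (6). A gene was measured when the array had a probe set carrying its symbol and no other, and the probe set with the highest mean stood for the gene. By this rule 31 of the 34 genes were measured, of 19938 genes in all, and all 31 lay above the low-signal filter that left 12988 genes for testing. Gpi1, Gapdh and Eno1 had no such probe set and were not analysed here.

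The arrays, 12 of Affymetrix's mouse gene design, were hybridised with RNA of R1 cells, a line of mouse embryonic stem cells (ESCs). The cells had been infected either with a scrambled control or with a knockdown of Smarcd1, which encodes the BAF60a subunit of SWI/SNF chromatin remodelling complexes. Undifferentiated cells gave 2 scrambled arrays, 2 arrays of the knockdown line KD1 and 2 of the knockdown line KD2, and these cells grew with serum and leukemia inhibitory factor. Differentiated cells were kept for 4 days without that factor and with 1 µM retinoic acid, and gave 2 scrambled and 4 KD1 arrays. All cells were maintained on mouse embryonic fibroblasts whose division was blocked by mitomycin, so RNA of those feeder cells may be part of a sample, and fewer cells of a type cannot be told apart from less RNA per cell. The protocol speaks of clones, and the labels do not say how the replicate cultures of a line were kept apart. The p-values therefore cover array-to-array spread that may be technical, and effects of the knockdown cannot be told apart from whatever else separates the lines.

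Glycolysis splits glucose into pyruvate in the cytoplasm, with phosphofructokinase as its main point of control, and lactate dehydrogenase and the lactate carriers dispose of the product when it is not burned in mitochondria. Pyruvate dehydrogenase kinases (the Pdk genes) hold back the entry of pyruvate into mitochondria. Many of these genes are textbook targets of hypoxia-inducible factors (HIFs), which bind DNA at a short core of letters, and undifferentiated ESCs are known for a high rate of glycolysis. The hypoxia targets outside glycolysis act in mitochondrial turnover (Bnip3, Bnip3l), in restraint of mTOR signalling (Ddit4) and in mitochondrial respiration (Higd1a).

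Smarcd1 itself checked the labels. Its log2 values were 8.67 and 8.68 in scrambled ESCs and 7.75 and 7.78 in KD1 ESCs. The array labelled KD2 replicate 1 read 8.56, near the scrambled arrays, while KD2 replicate 2 read 7.16. Against scrambled ESCs the Smarcd1 difference was -0.91 log2 units in KD1 (limma adjusted p = 0.230) and -0.81 in the mean of the arrays labelled KD2 (0.152), and neither passed. Without either KD2 array the KD1 difference had a limma adjusted p of 0.00196, and with the compared arrays only 0.0316. With the KD2 arrays kept and scrambled ESC replicate 1 left out it was 0.420. After retinoic acid the difference of KD1 from scrambled cells was -2.26 (limma adjusted p = 0.000152). Array medians ran from 4.73 to 5.09. Extraembryonic endoderm markers, the genes of the yolk sac lineages, averaged 5.74 to 5.84 on the scrambled ESC arrays, 6.80 to 6.81 on KD1 and 5.62 to 5.94 on KD2. After retinoic acid their mean was 7.19 to 7.32 on scrambled arrays and 9.82 to 10.24 on KD1 arrays. Changes below are log2 differences with the SE of limma and its Benjamini-Hochberg adjusted p over all tested genes, and a gene is called when that p is under 0.05.

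The core letters that HIFs bind were searched in the 250 bases upstream of the start of each gene in RefSeq's promoter table for GRCm38.p6. It held 31 of the 34 listed genes, which are not the same as the 31 measured ones. Slc2a3, Bnip3l and Ndrg1 had no entry, while the unmeasured Gpi1, Gapdh and Eno1 had one. The letters ACGTG, on either strand, occurred in 16 of those 31 listed genes (51.6%), against 24.7% of the 10310 tested genes with an entry. The related letters GCGTG occurred in 22 of the 31 (71.0%), against 49.5% of those tested genes. A gene with several starts was counted when any of its windows held the letters. Windows of 100 bases with ACGTG in capitals are shown for 4 members whose level after retinoic acid was higher in KD1 cells, and for Ddit4, which was lower there. The reverse strand's match reads CACGT, and CACGTG is an overlapping match on both strands.
Bnip3: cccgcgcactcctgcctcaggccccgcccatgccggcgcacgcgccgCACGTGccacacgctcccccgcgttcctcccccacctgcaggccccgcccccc
Ldha: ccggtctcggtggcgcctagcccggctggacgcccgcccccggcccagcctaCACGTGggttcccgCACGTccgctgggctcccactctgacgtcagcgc
Pgk1: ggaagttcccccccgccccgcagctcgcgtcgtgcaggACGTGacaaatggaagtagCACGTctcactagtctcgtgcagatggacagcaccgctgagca
Slc16a3: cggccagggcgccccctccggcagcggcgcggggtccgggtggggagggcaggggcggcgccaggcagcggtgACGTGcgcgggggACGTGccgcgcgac
Ddit4: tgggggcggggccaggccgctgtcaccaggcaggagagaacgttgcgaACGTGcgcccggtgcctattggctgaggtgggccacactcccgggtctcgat
The Bnip3 window is chr7:138909562-138909661 on the minus strand and spans bases 155 to 56 upstream of the start. The Ldha window, chr7:46845704-46845803 on the plus strand, lies 100 to 1 bases upstream. For Pgk1 the window is chrX:106186912-106187011 on the plus strand, 188 to 89 bases upstream. For Slc16a3 it is chr11:120948967-120949066 on the plus strand, 100 to 1 bases upstream. The Ddit4 window, chr10:59951906-59952005 on the minus strand, lies 235 to 136 bases upstream. Ldha holds 3 matches in its window, Bnip3, Pgk1 and Slc16a3 hold 2 each, and Ddit4 holds 1. A match is a description of the letters and not a site or a cause.

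Differentiation was examined first, since the scrambled arrays show how the pathway moves in control cells. With retinoic acid 16 of the 31 genes were called in scrambled cells, 3 higher and 13 lower, where 39.1% of all tested genes were called (22.4% higher and 16.7% lower). For 30 of the 31 the arrays of the groups did not overlap, against 77.1% of all tested genes. The median change of the members was -0.46, against 0.06 over all tested genes. In KD1 cells 18 of the 31 were called, 10 higher and 8 lower, where 50.8% of all tested genes were called (29.4% higher and 21.4% lower), and the members' median was 0.27 against 0.06. For 26 of the 31 these groups did not overlap, against 74.2% of all tested genes. With each array centred on its median, 4 members were called higher and 9 lower in scrambled cells, and the median over all tested genes became 0.24 there and 0.33 in KD1 cells. Without retinoic acid scrambled replicate 1 the count in scrambled cells was 10. The shares of all tested genes called in these settings are not set beside the member counts. Markers of cell types moved with retinoic acid as well. Of 10 pluripotent ESC markers 9 were called lower and 1 higher in scrambled cells (median -3.35), and 8 were called lower in KD1 cells (median -3.90). Their mean was 9.12 to 9.53 on scrambled and 9.73 to 9.88 on KD1 ESC arrays, and 6.23 to 6.29 and 5.86 to 6.81 after retinoic acid. Of 12 extraembryonic endoderm markers 9 were called higher in scrambled cells (median 1.04), and 11 higher and 1 lower in KD1 cells (median 3.79). Of 10 tested fibroblast markers 4 were called higher and 3 lower in scrambled cells, and 3 higher and 5 lower in KD1 cells. The part of these markers in the members' changes was not tested.

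**Figure D1:**
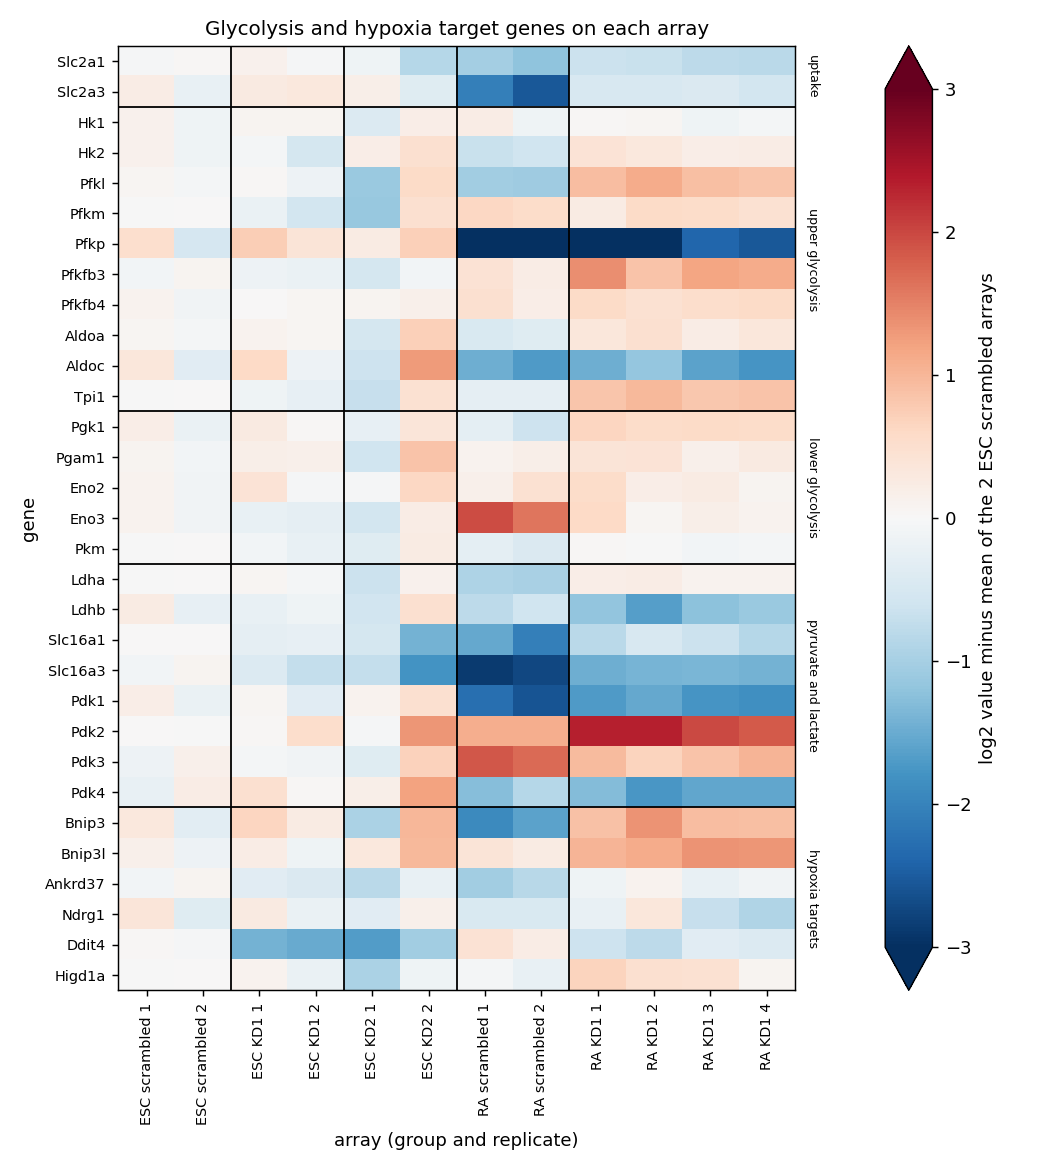
Log2 value of each measured gene (rows, by step) on each of the 12 arrays (columns, by group and replicate), as the difference from the mean of the 2 scrambled ESC arrays; the colour scale is capped at -3 and 3. The scrambled retinoic acid arrays are blue for the carriers Slc2a3 and Slc16a3 and for Bnip3, where the 4 KD1 arrays are nearer to the ESC level or above it.

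**Figure D2:**
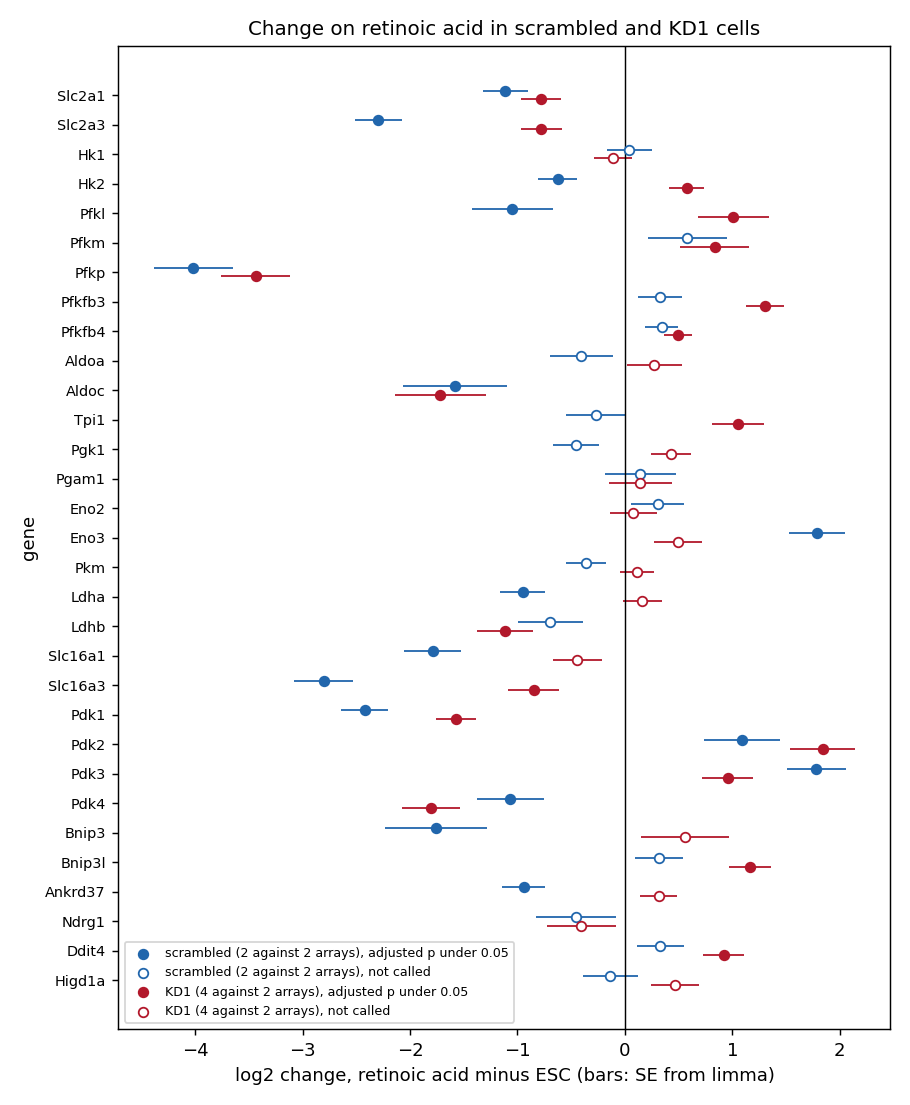
Log2 change with retinoic acid for each measured gene (x axis, retinoic acid minus ESC) in scrambled cells (blue, 2 arrays against 2) and in KD1 cells (red, 4 against 2); bars are the SE from limma and filled points have an adjusted p under 0.05. Pfkp fell in both, by 4.01 and by 3.43, while the points of Hk2 and Pfkl lie on opposite sides of 0.

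The lines were then compared with each other after retinoic acid. Of the 31 genes 15 were called higher and 3 lower in KD1 cells, where 22.7% of all tested genes were called (11.2% higher and 11.5% lower). The members' median difference was 0.71, against -0.02 over all tested genes, and 23 of the 31 differences were above 0. For 24 of the 31 the arrays of the lines did not overlap, against 54.0% of all tested genes. The genes called higher were Slc2a3, Hk2, Pfkl, Pfkp, Pfkfb3, Tpi1, Pgk1, Ldha, Slc16a1, Slc16a3, Pdk1, Pdk2, Bnip3, Bnip3l and Ankrd37, and those called lower were Eno3, Pdk3 and Ddit4. This comparison shares its scrambled arrays with the change in scrambled cells above, and its KD1 arrays with the change in KD1 cells. Without retinoic acid scrambled replicate 2 the count was 10 members, 8 higher and 2 lower. The share of all tested genes called in that setting is not set beside it, so the shift is not read as one of the members alone. Slc2a3, Hk2, Pfkl, Pgk1, Eno3, Ldha, Slc16a3 and Bnip3 were called under every alternative tried.

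Markers of other cell types moved with the same comparison. Of 12 extraembryonic endoderm markers 11 were called higher in KD1 cells, with a median difference of 3.11. Of 10 fibroblast markers 4 were called, all lower (median -0.90), and the mean of the measured fibroblast markers was 7.71 to 8.05 on the scrambled arrays and 6.67 to 7.10 on the KD1 arrays. Of 7 genes of the retinoic acid response 5 were called lower. Of 5 neural markers 3 were called lower (Nes, Pax6 and Map2; median of the 5 -1.26), and their differences were below 0 for all 5. Of 10 pluripotent ESC markers 3 were called higher (Klf4 by 3.14, Tbx3 by 0.93 and Pou5f1 by 0.85) and 1 lower (Sox2, -1.75), with a median of 0.10. Of 5 trophectoderm markers limma called 0, and 0 had an unadjusted p under 0.05 (median 0.13). The part of these markers in the differences of the glycolytic genes was not tested.

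**Figure D3:**
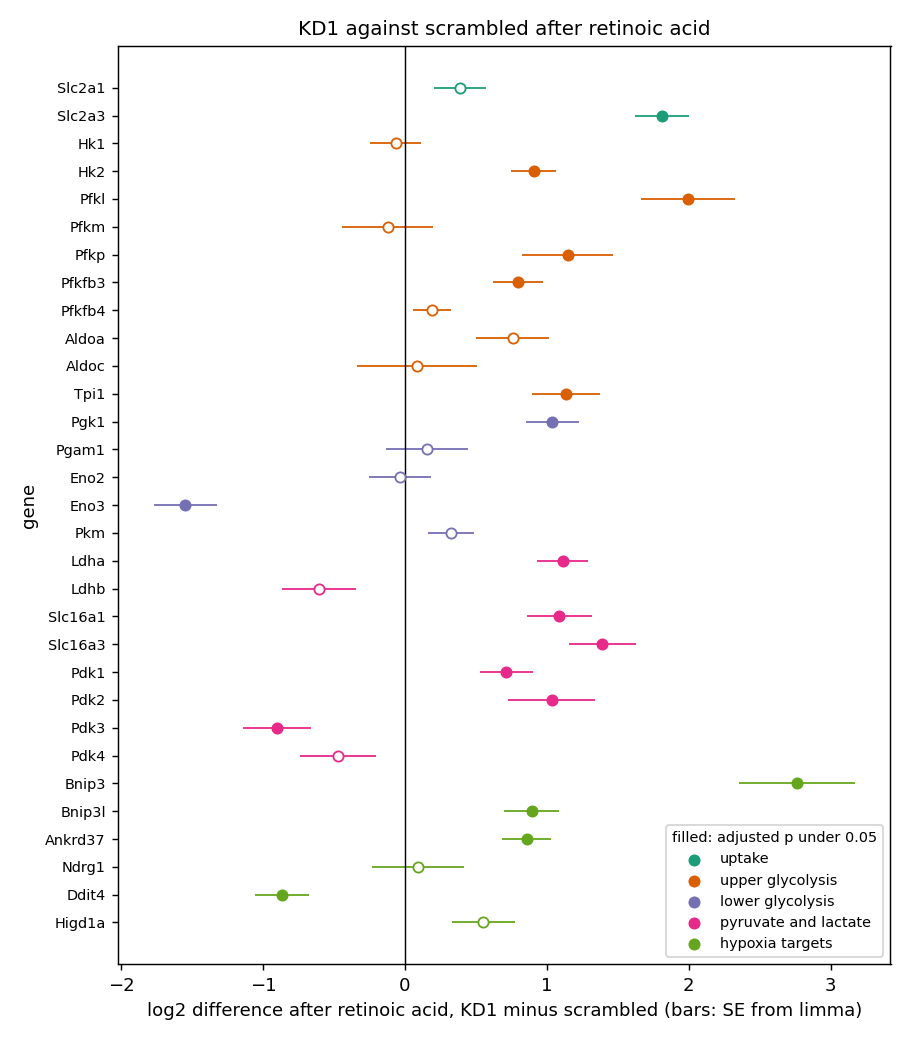
Log2 difference after retinoic acid (x axis, mean of the 4 KD1 arrays minus mean of the 2 scrambled arrays) for each measured gene, coloured by step; bars are the SE from limma and filled points have an adjusted p under 0.05. Bnip3 lies farthest to the right at 2.76 and Eno3 farthest to the left at -1.55.

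RNA of both glucose transporters fell with differentiation, and that of Slc2a3 fell less in KD1 cells. Slc2a3 encodes the high-affinity glucose transporter GLUT3, and its log2 values were 12.70 and 12.28 in scrambled ESCs, 12.76 and 12.79 in KD1 ESCs, and 12.67 and 12.13 in KD2 ESCs. After retinoic acid it read 10.43 and 9.95 in scrambled cells and 11.996, 12.01, 12.05 and 11.94 in KD1 cells. The scrambled retinoic acid arrays were the lowest of all 12 and the groups did not overlap. Its change with retinoic acid was -2.30 ± 0.22 (SE; adjusted p = 1.3e-05, limma) in scrambled cells and -0.78 ± 0.19 (SE; adjusted p = 0.0049, limma) in KD1 cells. Between the differentiated lines the difference was 1.81 ± 0.19 (SE; adjusted p = 4.19e-05, limma), and the difference between both changes, the interaction, was 1.52 ± 0.29 (SE; adjusted p = 0.00838, limma). Slc2a1, which encodes the widely expressed transporter GLUT1, read 12.55 and 12.59 in scrambled ESCs, 12.71 and 12.54 in KD1 ESCs, and 12.44 and 11.72 in KD2 ESCs. After retinoic acid it read 11.55 and 11.36 in scrambled cells and 11.94, 11.90, 11.78 and 11.77 in KD1 cells, so all differentiated KD1 arrays were above both scrambled ones but below the scrambled and KD1 ESC arrays. It fell by 1.11 ± 0.21 (SE; adjusted p = 0.00148, limma) in scrambled cells and by 0.78 ± 0.18 (SE; adjusted p = 0.00379, limma) in KD1 cells. The difference between the differentiated lines, 0.39 ± 0.18 (SE; adjusted p = 0.163, limma), did not pass the threshold.

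The upper steps of the pathway trap glucose as a phosphate and split it into 3-carbon units. Hk2 and Pfkl, both of these steps, were the 2 members called in both lines with changes of opposite sign. In KD1 against scrambled cells after retinoic acid 5 of the 10 measured genes of these steps were called, all higher. Of all tested genes 11.2% were called higher there and 11.5% lower. With retinoic acid 4 of the 10 were called in scrambled cells, all lower, and 8 in KD1 cells, 6 higher and 2 lower. Of all tested genes 16.7% were called lower in scrambled cells, and 29.4% higher and 21.4% lower in KD1 cells. Pfkl, the liver-type phosphofructokinase subunit, read 9.85 and 9.75 in scrambled ESCs, 9.83 and 9.65 in KD1 ESCs, and 8.70 and 10.37 in KD2 ESCs. After retinoic acid it read 8.76 and 8.74 in scrambled cells and 10.73, 10.92, 10.71 and 10.63 in KD1 cells. Differentiated KD1 arrays were the highest and differentiated scrambled arrays among the lowest, with only KD2 replicate 1 below them. Pfkl changed by -1.05 ± 0.38 (SE; adjusted p = 0.0465, limma) in scrambled cells and by 1.01 ± 0.33 (SE; adjusted p = 0.0233, limma) in KD1 cells. The differentiated lines differed by 1.99 ± 0.33 (SE; adjusted p = 0.00107, limma), with an interaction of 2.06 ± 0.50 (SE; adjusted p = 0.0282, limma).

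Hk2, an inducible hexokinase, also changed in opposite directions in the lines. Its values were 10.15 and 9.90 in scrambled ESCs, 9.96 and 9.51 in KD1 ESCs, and 10.23 and 10.50 in KD2 ESCs. With retinoic acid they were 9.36 and 9.44 in scrambled cells and 10.43, 10.34, 10.22 and 10.24 in KD1 cells, without overlap between the lines. The change was -0.63 ± 0.18 (SE; adjusted p = 0.0185, limma) in scrambled cells and 0.57 ± 0.16 (SE; adjusted p = 0.0107, limma) in KD1 cells. The KD1 difference after retinoic acid was 0.91 ± 0.16 (SE; adjusted p = 0.00167, limma) and the interaction 1.20 ± 0.24 (SE; adjusted p = 0.0115, limma). The fall in scrambled cells lost its call for Hk2 without scrambled ESC replicate 1 or either retinoic acid scrambled array (adjusted p 0.0657 to 0.132), and for Pfkl without any 1 of the 10 arrays outside KD2 (0.0620 to 0.165). The rise in KD1 cells lost it for Hk2 without KD1 ESC replicate 2 (0.184), and for Pfkl without either KD1 ESC array or retinoic acid KD1 replicate 2 (0.0539 to 0.141).

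Pfkp, the platelet-type phosphofructokinase subunit, showed the largest change of the members with retinoic acid. It read 10.74 and 9.71 in scrambled ESCs, 10.96 and 10.62 in KD1 ESCs, and 10.48 and 10.93 in KD2 ESCs, and after retinoic acid 6.13 and 6.29 in scrambled cells and 6.90, 6.99, 7.85 and 7.68 in KD1 cells. Both differentiated groups lay below every ESC array. Pfkp changed by -4.01 ± 0.37 (SE; adjusted p = 1.08e-05, limma) in scrambled cells and by -3.43 ± 0.32 (SE; adjusted p = 5.72e-06, limma) in KD1 cells, and the interaction was 0.58 ± 0.49 (SE; adjusted p = 0.584, limma). The differentiated lines differed by 1.15 ± 0.32 (SE; adjusted p = 0.0232, limma), which had an adjusted p of 0.166 without retinoic acid scrambled replicate 1. It had one of 0.104 without replicate 2. Leaving out KD1 replicate 3 or 4 gave 0.0576 or 0.0594. Without both KD1 replicates 3 and 4 the difference was 0.74 (limma adjusted p = 0.176). Pfkm, the muscle-type subunit, read 8.85 and 8.79 in scrambled cells and 8.49, 8.82, 8.79 and 8.69 in KD1 cells after retinoic acid, and these groups overlapped. It was called only for retinoic acid in KD1 cells among the 3 comparisons, with 0.84 ± 0.32 (SE; adjusted p = 0.0468, limma), and that call was lost without any 1 of the 10 arrays outside KD2 (0.0553 to 0.259).

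Pfkfb3 and Pfkfb4 encode enzymes that make fructose 2,6-bisphosphate, the activator of phosphofructokinase. Pfkfb3 read 6.29 and 6.46 in scrambled ESCs, 6.22 and 6.19 in KD1 ESCs, and 5.85 and 6.29 in KD2 ESCs. Differentiated cells gave 6.81 and 6.60 in scrambled cells and 7.77, 7.22, 7.55 and 7.48 in KD1 cells, and every KD1 array was above every other array. Its change was 0.33 ± 0.20 (SE; adjusted p = 0.23, limma) in scrambled cells and 1.30 ± 0.18 (SE; adjusted p = 9.28e-05, limma) in KD1 cells. The KD1 difference after retinoic acid was 0.80 ± 0.18 (SE; adjusted p = 0.00661, limma) and the interaction 0.97 ± 0.27 (SE; adjusted p = 0.0498, limma). Without retinoic acid scrambled replicate 2 the KD1 difference had an adjusted p of 0.0887. Pfkfb4 was called only in KD1 cells with retinoic acid, with 0.50 ± 0.13 (SE; adjusted p = 0.00879, limma), and the p was 0.0712 without KD1 ESC replicate 1. Its KD1 difference after retinoic acid was 0.19 ± 0.13 (SE; adjusted p = 0.375, limma).

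Tpi1 interconverts the 3-carbon products of aldolase. It read 10.45 and 10.48 in scrambled ESCs, 10.33 and 10.22 in KD1 ESCs, and 9.76 and 10.93 in KD2 ESCs, and after retinoic acid 10.19 and 10.19 in scrambled cells and 11.28, 11.43, 11.27 and 11.33 in KD1 cells. The differentiated KD1 arrays were the highest of all and the scrambled ones lay below all scrambled and KD1 ESC arrays. Tpi1 changed by 1.05 ± 0.24 (SE; adjusted p = 0.00354, limma) in KD1 cells and by -0.27 ± 0.28 (SE; adjusted p = 0.487, limma) in scrambled cells. Its KD1 difference after retinoic acid was 1.13 ± 0.24 (SE; adjusted p = 0.00528, limma), with an adjusted p of 0.0521 or 0.0504 without retinoic acid scrambled replicate 1 or 2, and the interaction, 1.32 ± 0.37 (SE; adjusted p = 0.0508, limma), missed the threshold. Aldoa, the main aldolase, read 11.003 and 11.10 in scrambled cells and 11.80, 11.95, 11.69 and 11.80 in KD1 cells after retinoic acid. These groups did not overlap, and their difference of 0.76 ± 0.26 (SE; adjusted p = 0.0536, limma) missed the threshold, though it had an adjusted p under it without either KD2 array (0.000226). Aldoc, the brain-type aldolase, changed by -1.58 ± 0.49 (SE; adjusted p = 0.0227, limma) in scrambled and -1.72 ± 0.42 (SE; adjusted p = 0.00512, limma) in KD1 cells, and the differentiated lines overlapped with a difference of 0.08 ± 0.42 (SE; adjusted p = 0.923, limma). The call in scrambled cells was lost without scrambled ESC replicate 1 or either retinoic acid scrambled array (0.0695 to 0.154), and that in KD1 cells without KD1 ESC replicate 1 (0.0781).

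Hk1, the hexokinase of most tissues, gave changes near 0, with -0.06 ± 0.18 (SE; adjusted p = 0.86, limma) for KD1 against scrambled after retinoic acid. Its probe set, with a mean of 11.81, was annotated to 1 accession. That accession was also listed for all 16 probe sets that name Hk1 together with other genes, and all 16 also name Rpl17, a ribosomal protein gene. The other probe set of Hk1 alone had a mean of 6.77 and a KD1 difference of -0.07 after retinoic acid. Which transcript the brighter probe set reads was not tested.

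The lower steps make ATP and pyruvate, and in them 1 of 5 measured genes was called higher and 1 lower in differentiated KD1 cells. Of all tested genes 11.2% were called higher and 11.5% lower in this comparison. Pgk1 encodes phosphoglycerate kinase, the first of the pathway's enzymes to make ATP. It read 11.44 and 11.04 in scrambled ESCs, 11.50 and 11.28 in KD1 ESCs, and 10.99 and 11.60 in KD2 ESCs. With retinoic acid it read 10.94 and 10.62 in scrambled cells and 11.87, 11.79, 11.81 and 11.79 in KD1 cells, with all KD1 arrays above every ESC array. The KD1 difference was 1.04 ± 0.19 (SE; adjusted p = 0.00191, limma), whereas the changes with retinoic acid, -0.46 ± 0.22 (SE; adjusted p = 0.118, limma) in scrambled and 0.43 ± 0.19 (SE; adjusted p = 0.0764, limma) in KD1 cells, did not pass. The array has 3 Pgk1 probe sets, of which 2 hold identical values on all 12 arrays and the third nearly so, so their differences of 1.02 to 1.04 are not separate measurements.

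Eno3, the enolase of muscle, went the other way. It read 5.84 and 5.63 in scrambled ESCs, 5.50 and 5.47 in KD1 ESCs, and 5.19 and 5.96 in KD2 ESCs, and after retinoic acid 7.70 and 7.35 in scrambled cells and 6.34, 5.80, 5.92 and 5.85 in KD1 cells. The differentiated scrambled arrays were the highest of all, and 3 of the 4 KD1 arrays lay within the range of the ESC arrays. The change was 1.79 ± 0.26 (SE; adjusted p = 0.000237, limma) in scrambled cells and 0.49 ± 0.22 (SE; adjusted p = 0.0868, limma) in KD1 cells, the KD1 difference after retinoic acid -1.55 ± 0.22 (SE; adjusted p = 0.000426, limma) and the interaction -1.30 ± 0.34 (SE; adjusted p = 0.0393, limma). Eno2, the neuronal enolase, and Pgam1, phosphoglycerate mutase, overlapped between the differentiated lines, with differences of -0.03 ± 0.22 and 0.16 ± 0.29. Pkm, pyruvate kinase, read 11.18 and 11.05 in scrambled cells and 11.51, 11.47, 11.39 and 11.41 in KD1 cells. Its groups did not overlap, but the difference of 0.33 ± 0.16 (SE; adjusted p = 0.187, limma) did not pass, and its other probe set gave 0.43.

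**Figure D4:**
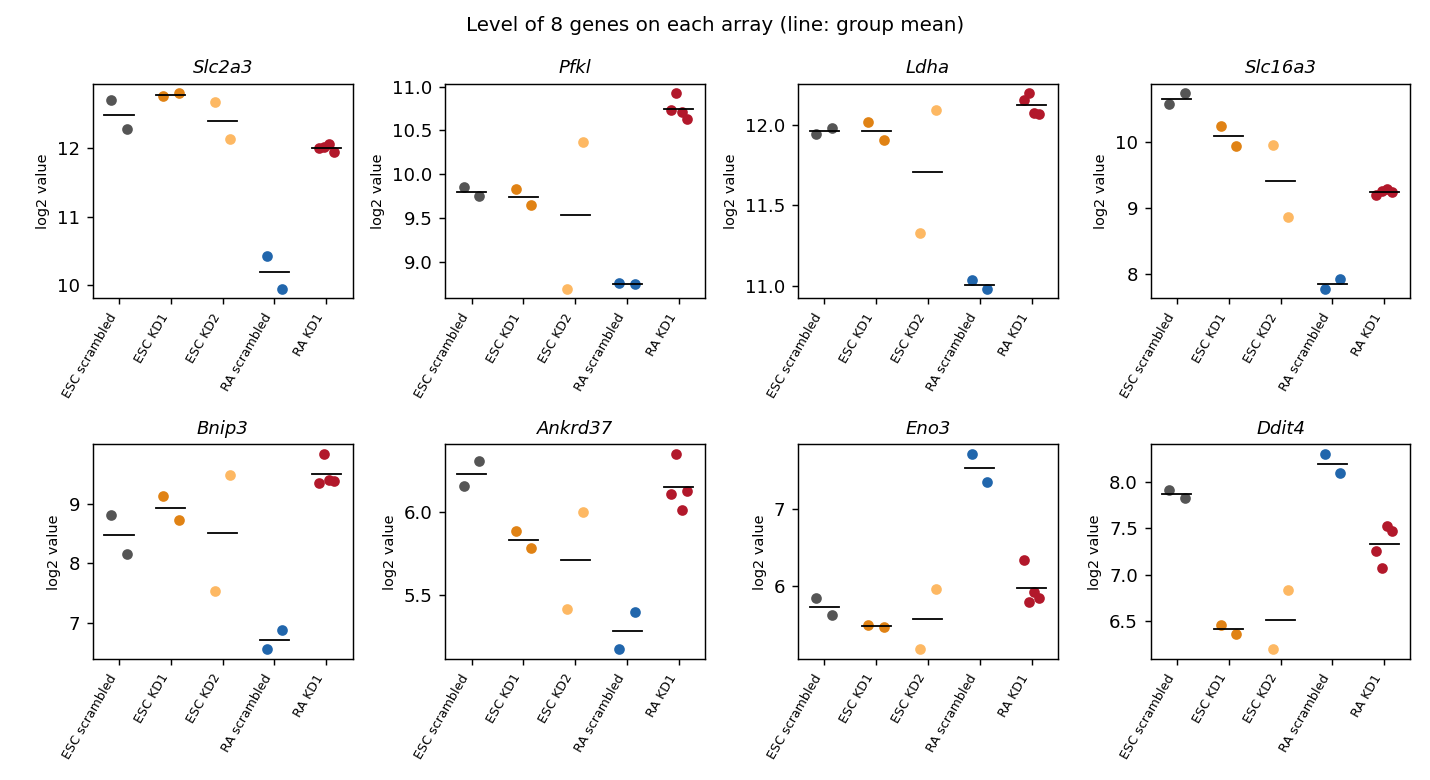
Log2 value on each array (points) for 8 genes, by group; horizontal lines are group means and each panel has its own y axis. Slc2a3, Pfkl, Ldha, Slc16a3, Bnip3 and Ankrd37 are lower on both scrambled retinoic acid arrays than on all 4 KD1 ones, while Eno3 and Ddit4 are higher.

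Genes of pyruvate and lactate held 5 calls higher and 1 lower of 8 in differentiated KD1 cells. That comparison called 11.2% of all tested genes higher and 11.5% lower. Ldha encodes the lactate dehydrogenase subunit that favours lactate formation, and it read 11.94 and 11.98 in scrambled ESCs, 12.01 and 11.90 in KD1 ESCs, and 11.33 and 12.09 in KD2 ESCs. The differentiated arrays read 11.04 and 10.98 in scrambled cells and 12.15, 12.19, 12.07 and 12.07 in KD1 cells. The scrambled arrays were the lowest of all 12, and all KD1 arrays were above the scrambled and KD1 ESC arrays. Ldha changed by -0.95 ± 0.21 (SE; adjusted p = 0.00378, limma) in scrambled cells and by 0.16 ± 0.18 (SE; adjusted p = 0.483, limma) in KD1 cells. The KD1 difference after retinoic acid was 1.11 ± 0.18 (SE; adjusted p = 0.001, limma) and the interaction 1.11 ± 0.28 (SE; adjusted p = 0.0307, limma). Ldhb, the other subunit, read 8.18 and 8.38 in scrambled cells and 7.79, 7.33, 7.74 and 7.86 in KD1 cells after retinoic acid, and here the KD1 arrays were the lower ones. It changed by -1.12 ± 0.26 (SE; adjusted p = 0.00403, limma) in KD1 and by -0.70 ± 0.30 (SE; adjusted p = 0.0901, limma) in scrambled cells, and the difference between the differentiated lines, -0.60 ± 0.26 (SE; adjusted p = 0.13, limma), did not pass.

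The lactate carriers Slc16a3 (MCT4, mainly export) and Slc16a1 (MCT1) had called interactions in the same direction as Ldha. Slc16a3 read 10.59 and 10.74 in scrambled ESCs, 10.24 and 9.95 in KD1 ESCs, and 9.96 and 8.88 in KD2 ESCs. With retinoic acid it read 7.78 and 7.93 in scrambled cells and 9.20, 9.26, 9.29 and 9.25 in KD1 cells, and both groups of scrambled cells were at the ends of the range. It changed by -2.80 ± 0.27 (SE; adjusted p = 1.47e-05, limma) in scrambled and -0.85 ± 0.24 (SE; adjusted p = 0.0104, limma) in KD1 cells, the latter with an adjusted p of 0.105 without KD1 ESC replicate 1. The KD1 difference after retinoic acid was 1.39 ± 0.24 (SE; adjusted p = 0.00125, limma) and the interaction 1.96 ± 0.36 (SE; adjusted p = 0.0069, limma). Slc16a1 read 11.49 and 11.49 in scrambled ESCs, 11.23 and 11.23 in KD1 ESCs, and 10.96 and 10.07 in KD2 ESCs, and after retinoic acid 9.96 and 9.44 in scrambled cells and 10.67, 11.01, 10.84 and 10.64 in KD1 cells. KD1 arrays were above both scrambled ones, and the difference was 1.09 ± 0.23 (SE; adjusted p = 0.00502, limma). Without retinoic acid scrambled replicate 2 its adjusted p was 0.0949. Slc16a1 changed by -1.79 ± 0.27 (SE; adjusted p = 0.000293, limma) in scrambled cells and by -0.44 ± 0.23 (SE; adjusted p = 0.13, limma) in KD1 cells, with an interaction of 1.34 ± 0.35 (SE; adjusted p = 0.0382, limma).

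The 4 pyruvate dehydrogenase kinases had calls in both directions. Pdk1, a HIF target, read 9.25 and 8.83 in scrambled ESCs, 9.11 and 8.70 in KD1 ESCs, and 9.14 and 9.52 in KD2 ESCs, and after retinoic acid 6.78 and 6.46 in scrambled cells and 7.35, 7.52, 7.27 and 7.20 in KD1 cells. It fell in both lines, with -2.42 ± 0.22 (SE; adjusted p = 8.79e-06, limma) in scrambled and -1.57 ± 0.19 (SE; adjusted p = 3.51e-05, limma) in KD1 cells, and the differentiated KD1 arrays stayed above the scrambled ones by 0.71 ± 0.19 (SE; adjusted p = 0.017, limma). That difference had an adjusted p of 0.196 without retinoic acid scrambled replicate 2. Pdk2, found in many tissues, read 4.65 and 4.65 in scrambled ESCs, 4.68 and 5.19 in KD1 ESCs, and 4.63 and 5.98 in KD2 ESCs. Both scrambled values and replicate 1 of KD1 and of KD2 lay near the low-signal level of 4.46 to 4.63. The size of a rise from them is therefore uncertain. The differentiated values were 5.75 and 5.74 in scrambled cells and 6.99, 6.99, 6.62 and 6.50 in KD1 cells. It rose in both lines, by 1.09 ± 0.35 (adjusted p = 0.0284, limma) and 1.84 ± 0.30 (adjusted p = 0.000385), and the KD1 difference was 1.03 ± 0.30 (SE; adjusted p = 0.0296, limma). Leaving out retinoic acid scrambled replicate 1 or 2 took the p of that difference to 0.155 or 0.153. It was 0.0673 or 0.0711 without KD1 replicate 1 or 2, and the rise in scrambled cells was lost without any one of the 4 scrambled arrays, with 0.100 to 0.107.

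Pdk3, a further kinase of the family, rose in both lines. It read 7.45 and 7.75 in scrambled ESCs, 7.55 and 7.50 in KD1 ESCs, and 7.23 and 8.29 in KD2 ESCs, and after retinoic acid 9.46 and 9.30 in scrambled cells and 8.56, 8.28, 8.46 and 8.62 in KD1 cells, so that differentiated scrambled arrays were the highest. The changes were 1.78 ± 0.28 (SE; adjusted p = 0.000393, limma) in scrambled and 0.96 ± 0.24 (SE; adjusted p = 0.00578, limma) in KD1 cells. The KD1 difference, -0.90 ± 0.24 (SE; adjusted p = 0.0175, limma), had an adjusted p of 0.148 or 0.0802 without scrambled replicate 1 or 2. Its interaction, -0.82 ± 0.37 (SE; adjusted p = 0.23, limma), did not pass. Pdk4, the kinase induced by fasting, was called lower, at -1.07 ± 0.31 in scrambled (limma adjusted p = 0.0176) and -1.81 ± 0.27 in KD1 cells (adjusted p = 0.000181). The first was lost without retinoic acid scrambled replicate 1 (0.132) or scrambled ESC replicate 2 (0.125). On the arrays with retinoic acid it read 3.74 and 4.18 in scrambled cells and 3.74, 3.27, 3.47 and 3.47 in KD1 cells, all below the low-signal level of 4.46 to 4.63, so differences there are at the edge of detection.

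Of 6 hypoxia targets 3 were called higher and 1 lower in differentiated KD1 cells, against 11.2% higher and 11.5% lower of all tested genes. Bnip3, which marks mitochondria for removal, had the largest difference of all members in this comparison. It read 8.80 and 8.16 in scrambled ESCs, 9.13 and 8.73 in KD1 ESCs, and 7.54 and 9.48 in KD2 ESCs. Differentiated cells gave 6.56 and 6.89 in scrambled cells and 9.35, 9.83, 9.40 and 9.37 in KD1 cells, and no KD1 array came near the scrambled ones. Bnip3 changed by -1.76 ± 0.47 (SE; adjusted p = 0.0116, limma) in scrambled cells and by 0.56 ± 0.41 (SE; adjusted p = 0.278, limma) in KD1 cells. The differentiated lines differed by 2.76 ± 0.41 (SE; adjusted p = 0.000504, limma) and the interaction was 2.31 ± 0.62 (SE; adjusted p = 0.0439, limma). Without retinoic acid scrambled replicate 1 the fall in scrambled cells had an adjusted p of 0.0769, and without scrambled ESC replicate 1 one of 0.0962. The other Bnip3 probe set gave a KD1 difference of 2.46.

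Bnip3l, a paralog with a like role, read 9.94 and 9.63 in scrambled ESCs, 10.003 and 9.66 in KD1 ESCs, and 10.11 and 10.76 in KD2 ESCs. With retinoic acid it read 10.17 and 10.03 in scrambled cells and 10.81, 10.91, 11.14 and 11.11 in KD1 cells. The KD1 arrays were the highest of all, with a KD1 difference of 0.89 ± 0.20 (SE; adjusted p = 0.00647, limma) and a change of 1.16 ± 0.20 (SE; adjusted p = 0.00046, limma) in KD1 cells against 0.32 ± 0.23 (SE; adjusted p = 0.302, limma) in scrambled cells. Without retinoic acid scrambled replicate 2 the difference had an adjusted p of 0.0744. Bnip3l lies on chromosome 14, whose 451 tested genes had a median difference of 0.18 in this comparison and 0.29 in KD1 cells with retinoic acid. The ankyrin repeat gene Ankrd37 read 6.16 and 6.30 in scrambled ESCs, 5.88 and 5.79 in KD1 ESCs, and 5.42 and 6.002 in KD2 ESCs, and with retinoic acid 5.18 and 5.40 in scrambled cells and 6.11, 6.35, 6.01 and 6.12 in KD1 cells. Both differentiated scrambled arrays were the lowest of all. Its change was -0.94 ± 0.20 (SE; adjusted p = 0.00312, limma) in scrambled and 0.31 ± 0.17 (SE; adjusted p = 0.154, limma) in KD1 cells. The KD1 difference, 0.86 ± 0.17 (SE; adjusted p = 0.00382, limma), had an adjusted p of 0.0648 without retinoic acid scrambled replicate 1, and the interaction was 1.25 ± 0.27 (SE; adjusted p = 0.0138, limma). It lies on chromosome 8, whose 706 tested genes had a median KD1 difference of -0.31 after retinoic acid and -0.30 in ESCs, where Ankrd37 itself differed by -0.39 ± 0.20 (SE; adjusted p = 0.463, limma).

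Ddit4 (REDD1), a stress-induced inhibitor of mTOR signalling, was the 1 hypoxia target called lower in KD1 than in scrambled cells, both before and after differentiation. It read 7.91 and 7.82 in scrambled ESCs, 6.46 and 6.36 in KD1 ESCs, and 6.19 and 6.83 in KD2 ESCs. The differentiated arrays read 8.30 and 8.09 in scrambled cells and 7.26, 7.07, 7.52 and 7.47 in KD1 cells. Every KD1 array was below every scrambled array at the same stage, and so were both ESC arrays labelled KD2, of which replicate 1 was near the scrambled arrays in Smarcd1. The KD1 difference was -1.46 ± 0.22 (SE; adjusted p = 0.00743, limma) in ESCs and -0.86 ± 0.19 (SE; adjusted p = 0.00628, limma) after retinoic acid, and Ddit4 rose in KD1 cells by 0.92 ± 0.19 (limma adjusted p = 0.00175). The interaction was 0.59 ± 0.29 (SE; adjusted p = 0.282, limma). The ESC call was lost without scrambled replicate 2 (0.0576), KD1 replicate 1 (0.0811) or KD1 replicate 2 (0.0747), and that after retinoic acid without scrambled replicate 1 (0.0872). Ndrg1, a stress-response gene, read 6.65 and 6.66 in scrambled cells and 6.89, 7.45, 6.43 and 6.22 in KD1 cells after retinoic acid, and the lines overlapped with a difference of 0.09 ± 0.32 (SE; adjusted p = 0.89, limma). Higd1a differed by 0.55 ± 0.22 (SE; adjusted p = 0.102, limma), and its 2 probe sets disagreed in size in scrambled cells with retinoic acid, at -0.13 and -0.81.

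Whether the change with retinoic acid itself differed between the lines was asked by the interaction. It was called for 10 of the 31 genes, 9 higher and 1 lower in KD1 cells, where 7.88% of all tested genes were called (4.27% higher and 3.61% lower). The members' median interaction was 0.60, against -0.01 over all tested genes, and 24 of 31 were above 0. The genes were Slc2a3, Hk2, Pfkl, Pfkfb3, Ldha, Slc16a1, Slc16a3, Bnip3 and Ankrd37, and lower Eno3. This number moved with single arrays, being 3 without scrambled ESC replicate 1, scrambled ESC replicate 2, KD1 ESC replicate 1, or either scrambled retinoic acid array. Without KD1 ESC replicate 2 it was 2, without retinoic acid KD1 replicates 1, 2, 3 and 4 in turn 6, 5, 4 and 5, and without either or both KD2 arrays 17. With each array centred on its median it was 5, all higher. The shares of all tested genes called in these settings are not set beside the counts, which therefore do not describe the members alone. The call of Slc2a3 was lost without retinoic acid scrambled replicate 2 (0.0517). Slc16a3 kept its call without each array, while the other 8 lost theirs without at least 3 (Hk2) and at most 10 (Ldha and Bnip3) of the 12 arrays, with adjusted p up to 0.194.

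In undifferentiated cells few of these genes were called. KD1 against scrambled gave 1 call of 31, Ddit4 lower, where 2.32% of all tested genes were called (0.909% higher and 1.41% lower). The members' median was -0.00045, against -0.00397 over all tested genes, and 12 of the 31 did not overlap between the groups, against 52.7% of all tested genes. Slc16a3 differed by -0.56 ± 0.27 (SE; adjusted p = 0.428, limma), and without either KD2 array its adjusted p was 0.0213. Markers moved here too: all 10 tested fibroblast markers were below 0 in KD1 against scrambled ESCs (median -0.77, 1 called lower) and in the arrays labelled KD2 (median -0.80, 3 called lower). The mean of the measured ones was 7.30 to 7.37 on scrambled, 6.16 to 7.04 on KD1 and 6.37 to 6.76 on KD2 arrays. Of 12 extraembryonic endoderm markers 5 were called higher in KD1 and 1 lower in KD2. Of 10 pluripotent ESC markers 2 were called higher and 1 lower in KD1, and 3 higher and 1 lower in KD2. Their part in the members' differences was not tested. The mean of the arrays labelled KD2, of which replicate 1 goes against that label in Smarcd1, gave 3 calls against scrambled, all lower, where 10.0% of all tested genes were called (2.88% higher and 7.15% lower). Slc16a3 differed by -1.25 ± 0.27 (SE; adjusted p = 0.0144, limma), Slc16a1 by -0.97 ± 0.27 (SE; adjusted p = 0.0395, limma) and Ddit4 by -1.36 ± 0.22 (SE; adjusted p = 0.00331, limma). Leaving out scrambled replicate 2 ended the call of Slc16a3 (0.115), and leaving out any 1 of 9 arrays that of Slc16a1 (0.0523 to 0.184), all but KD2 replicate 1 and the scrambled retinoic acid arrays. The members' median was -0.06 against -0.02, and 8 of the 31 did not overlap, against 40.6% of all tested genes. KD2 against KD1 gave 0 calls of 31 by limma, where 2.70% of all tested genes were called (0.508% higher and 2.19% lower). At an unadjusted p under 0.05 there were 5 members (Slc2a1, Slc16a1 and Slc16a3 lower, Hk2 and Bnip3l higher). The share of all tested genes at that unadjusted threshold was not counted, so these 5 are not set against the 2.70%. For 7 of the 31 the KD2 and KD1 arrays did not overlap, against 34.9% of all tested genes. The ESC comparisons share the scrambled or the KD1 arrays.

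The arrays labelled KD2 differed from each other in most of these genes. Replicate 2 was above replicate 1 for 27 of the 31 members, with a median difference of 0.65, while it was above for 58.1% of all tested genes with a median of 0.13. Pfkl stood at 8.70 on replicate 1 and 10.37 on replicate 2, Bnip3 at 7.54 and 9.48, and Aldoc at 6.98 and 8.87. The 4 members that were lower on replicate 2 were the membrane carriers Slc2a1 (-0.72), Slc2a3 (-0.54), Slc16a1 (-0.89) and Slc16a3 (-1.08). Without the array labelled KD2 replicate 1, the KD2 comparison with scrambled cells gave 14 calls, 10 higher and 4 lower. Without replicate 2 it gave 11, all lower, and without scrambled replicate 2 it gave 1. Pfkl then differed by 0.57 (limma adjusted p = 0.0157) on replicate 2 alone and by -1.11 (adjusted p = 0.000747) on replicate 1 alone, and Bnip3 by 1.00 (0.0217) and -0.94 (0.0318). Ddit4 was lower on each alone, at -1.04 (0.00246) and -1.68 (0.000292). Against KD1 Pfkl differed by 0.63 on replicate 2 alone and by -1.04 on replicate 1 alone, and Bnip3 by 0.55 and -1.39. These fits leave 1 KD2 array, which is assumed to vary like the arrays of the other groups, and they no longer hold the spread between the KD2 arrays: of all tested genes 4463 were called against scrambled without replicate 1 and 3961 without replicate 2, against 1302 with both.

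Genes of neighbouring pathways were taken from lists of their own, beginning with other hypoxia targets. In KD1 against scrambled cells after retinoic acid 7 of 14 were called, all higher, with a median of 0.75. Of all tested genes 11.2% were called higher there and 11.5% lower. P4ha2, which hydroxylates collagen, differed by 3.55 ± 0.29 (SE; adjusted p = 5.87e-06, limma) and Plod2, which hydroxylates collagen lysines, by 2.78 ± 0.21 (SE; adjusted p = 3.42e-06, limma). With retinoic acid in scrambled cells 1 was called higher (Vegfa, 1.07 ± 0.25) and 4 lower, among them Stc2 (-2.19 ± 0.33) and Ero1a (-1.53 ± 0.31). In KD1 cells 6 were called higher and 3 lower. The shares of all tested genes were 22.4% higher and 16.7% lower in scrambled cells, and 29.4% higher and 21.4% lower in KD1 cells. Of the HIF subunits and their oxygen sensors 2 of 10 were higher and 3 lower in differentiated KD1 cells. Over all tested genes the shares were 11.2% higher and 11.5% lower. Epas1, which encodes HIF-2α, read 6.37 and 6.15 in scrambled ESCs, 7.29 and 6.97 in KD1 ESCs, and 8.49 and 8.21 in KD2 ESCs, and after retinoic acid 5.35 and 5.43 in scrambled cells and 9.91, 9.95, 10.11 and 9.81 in KD1 cells, a difference of 4.55 ± 0.15 (SE; adjusted p = 3.28e-08, limma). Egln3, an oxygen sensor and itself a HIF target, differed by 1.68 ± 0.39 (SE; adjusted p = 0.00881, limma) and Arnt2, a HIF partner, by -1.57 ± 0.16 (SE; adjusted p = 3.63e-05, limma).

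Of the 9 other tested isozymes of glycolysis 2 were higher and 1 lower in differentiated KD1 cells. In that comparison 11.2% of all tested genes were called higher and 11.5% lower. Hkdc1, a further hexokinase, read 4.44 and 4.15 in scrambled ESCs, 4.52 and 4.37 in KD1 ESCs, and 4.31 and 4.19 in KD2 ESCs, near the low-signal level of 4.46 to 4.63. The differentiated values were 4.91 and 4.37 in scrambled cells and 8.13, 8.71, 8.78 and 8.28 in KD1 cells, and the difference between the lines was 3.83 ± 0.21 (SE; adjusted p = 4.25e-07, limma). Since 1 of the 2 scrambled values lay below the low-signal level and the other little above it, the size of this difference is uncertain. Pfkfb2, another maker of fructose 2,6-bisphosphate, was higher by 1.52 ± 0.20 and the insulin-regulated transporter Slc2a4 differed by -1.18 ± 0.19 (adjusted p = 0.000205 and 0.000907, limma). Of 16 genes of the tricarboxylic acid cycle, which oxidises the acetyl groups made from pyruvate, limma called 0, and 0 had an unadjusted p under 0.05, with a median of -0.02. With retinoic acid 3 of these rose in scrambled cells and 5 in KD1 cells, where 22.4% and 29.4% of all tested genes were called higher. Of 9 genes of pyruvate entry into mitochondria 1 was called, the phosphatase Pdp2, at -0.89 ± 0.19 (SE; adjusted p = 0.00516, limma). The pentose phosphate pathway gave 1 call higher of 6 (Rpia, 0.44 ± 0.14), and gluconeogenesis and glycogen 1 higher (Fbp2, 0.63 ± 0.20) and 1 lower (Pygm, -0.42 ± 0.13) of 11.

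**Figure D5:**
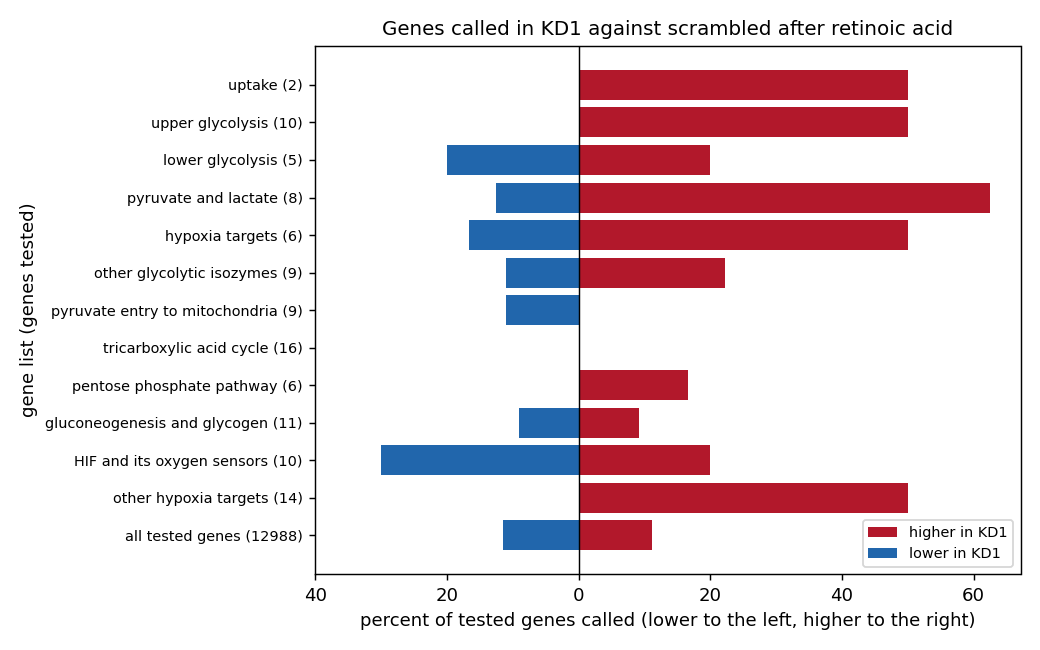
Percent of the tested genes of each list called in KD1 against scrambled cells after retinoic acid (x axis, lower to the left of 0 and higher to the right; bars start at 0), with the number tested in brackets. Among all tested genes 11.2% were called higher and 11.5% lower, and of the tricarboxylic acid cycle genes 0 of 16.

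Of the 13 members that were called higher in differentiated KD1 cells and had a promoter entry, 9 held ACGTG (69.2%), against 30.4% of the 1162 tested genes called higher with an entry. These were Hk2, Pfkfb3, Pgk1, Ldha, Slc16a1, Slc16a3, Pdk2, Bnip3 and Ankrd37, and Pfkl, Pfkp, Tpi1 and Pdk1 did not hold it in this window. GCGTG occurred in 8 of the 13 (61.5%), against 52.5% of those genes. Ddit4 and Pdk3, which were lower in these cells, also held ACGTG. The list was drawn up partly from HIF targets, so its share is not independent of the choice of members, and the letters were not set against binding data.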

How the data were processed

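The deposited values were log2 probe set summaries, made by the authors with RMA per the submitters' processing notes. For RMA's version and settings, and for the annotation, the state is "not given in the sources used here". No further scaling was applied. Of 35556 probe sets, 23410 were in the platform's gene table, 21789 with 1 symbol and 1621 with several. Probe sets with 1 symbol gave 19938 genes, and where a gene had several the one with the highest mean over the 12 arrays was used. Testing was kept to the 12988 genes that exceeded, on 2 arrays or more, percentile 40 of that array's named genes (log2 4.46 to 4.63). The number of arrays limits the precision of every value.

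Groups and replicate numbers follow the sample titles. A group-means model over all 12 arrays was fitted with limma 3.58.1 (R 4.3.3), using 2-sided moderated tests on 7 residual and 4.58 prior degrees of freedom. P-values were adjusted by Benjamini-Hochberg over the tested genes within each of 7 contrasts. The procedure was run on simulated data, with noise drawn independently for each gene and array. Such data cannot show how it behaves where arrays share deviations, and nothing is concluded from them here. Every listed gene is named, and of each neighbouring list up to 2 genes with the largest change past the threshold in each direction. The members, the neighbouring lists and the marker lists (pluripotent ESC, fibroblast feeder, extraembryonic endoderm, neural, retinoic acid response, trophectoderm) were chosen with earlier results of these data known. Some genes that rule gives are not named.

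Alternatives were no filter on dim genes, cyclic loess, each array centred on its median over all probe sets, array weights, an intensity trend, models of the compared arrays only or without either KD2 array, the mean of a gene's probe sets, a replicate block, 2 of the 4 differentiated KD1 arrays left out, and every array left out singly. A crossed replicate block was added after seeing the data. Several members have near-identical copies elsewhere in the genome, so probes may be shared and their values are uncertain to that extent; 8 members had several probe sets. Promoter letters were read from RefSeq's table for GRCm38.p6. Python 3.11.15 with numpy 2.4.6 and pandas 2.3.3 made the tables, and matplotlib 3.10.9 the figures.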

Additional observations from a re-analysis of the deposited data

Results flagged for a closer look

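In the group of 4 differentiated KD1 arrays, Bnip3 on replicate 2 stood apart at 9.83, with a gap to its neighbour that was 0.888 of the group's range of 0.478 log2 units. The threshold for naming such a gap is one that about 1 in 20 groups passes by chance, and each of the 31 genes was screened in this group of arrays.

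The change with retinoic acid differed between KD1 and scrambled cells, by the interaction test in limma, for 10 genes. The signed change in KD1 cells minus that in scrambled cells was 2.31 for Bnip3, 2.06 for Pfkl, 1.96 for Slc16a3 and 1.52 for Slc2a3. It was 1.34 for Slc16a1, 1.25 for Ankrd37, 1.20 for Hk2, 1.11 for Ldha, 0.97 for Pfkfb3 and -1.30 for Eno3. A value above 0 can be a smaller fall, as for Slc2a3, which changed by -2.30 in scrambled and -0.78 in KD1 cells. The adjusted p-values of these 10 genes and the arrays they rest on are given with the interaction in the report.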

How the results depend on the processing

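No called change of a member turned its direction. There were 66 such changes over the 7 comparisons, and of their 1475 values under the alternatives 1258 stayed called and 217 did not. Calls held under every alternative for 10 of 16 members with retinoic acid in scrambled cells, 11 of 18 in KD1 cells and 8 of 18 between the differentiated lines, and for none of the ESC or interaction calls. For KD1 against scrambled ESCs the count of 1 became 2 with array weights or without either KD2 array. For KD2 against scrambled ESCs the count of 3 became 0 with array weights or with the compared arrays only, and after cyclic loess 1 was higher and 1 lower. The interaction count of 10 became 5 with median centring, and 17 with array weights, with the compared arrays only or without either KD2 array. It was 4 without retinoic acid KD1 arrays 3 and 4 and 3 without arrays 1 and 2. Leaving out 1 array gave 0 to 2 calls for KD1 against scrambled ESCs, 1 to 14 for KD2, 0 to 16 for KD2 against KD1, 10 to 22 for retinoic acid in scrambled cells, 13 to 25 in KD1 cells, 10 to 23 between the differentiated lines and 2 to 17 for the interaction. Counts over all tested genes can move with the setting too, as given for KD2 in the report, so these ranges do not describe the members alone. In comparisons without KD2, leaving out both KD2 arrays kept the log2 differences and moved their limma adjusted p, as for Aldoa between the differentiated lines (0.76). The cause of these shifts was not tested.

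The replicate numbers of a pair of groups share only 2 values, and the deviations of same-numbered arrays correlated between -0.18 and 0.24. The highest value was that of scrambled and KD1 ESCs. Whether same-numbered arrays share more than a number is not settled by these values. With the replicate number as a block the counts were 0 for KD1 and 1 for KD2 against scrambled ESCs, 0 for KD2 against KD1, 12 for retinoic acid in scrambled and in KD1 cells, 13 between the differentiated lines and 2 for the interaction. With the KD2 numbers exchanged in the block, KD2 against KD1 called 0 members and 56 of all tested genes, against 29 in the plain block and 351 without one.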
